A study of Homo sapiens with 6 samples.

Results

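The heat shock chaperones described here are the genes of the HSP70, HSP110, HSP90, HSP60 and small heat shock protein families, their J-domain partners, the transcription factor HSF1 and the co-chaperone BAG3. They were chosen by symbol, as DNAJA, DNAJB, DNAJC, HSPA, HSPB or HSPH followed by a number, together with HSPD1, HSPE1, HSP90AA1, HSP90AB1, HSF1 and BAG3. HSPA5, DNAJB9, DNAJB11 and DNAJC3 of the endoplasmic reticulum and all pseudogenes were left out. The reference table holds 68 such genes, and 64 of them were read by at least 1 probe set annotated to them alone, among the 19775 genes measured. HSPA1A, HSPA1B, HSPA8 and DNAJC25 were read only by probe sets that the annotation shares with other genes.

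RNA came from the 1833 subline of MDA-MB-231, a human breast cancer cell line. The first group is 3 arrays of 1833 cells labelled as transduced with S153E-RKIP, a mutant RKIP that the series describes as a stronger inhibitor of Raf-1, carried by a lentiviral vector and kept in 0.5 µg/ml puromycin. The other group is 3 arrays of 1833 control cells, the vector control of the design text, and both groups grew with 10% serum. Puromycin is not recorded for the control cells, so its effect and that of S153E-RKIP cannot be told apart. Samples are labelled as biological replicates, but separate cultures are not described, nor whether either line is 1 clone. The p-values therefore set a difference against the spread within the groups of these 6 samples, and some of that spread may be technical. The source name of the S153E-RKIP samples speaks of HMGA2 shRNA instead. Neither PEBP1, which encodes RKIP (log2 difference -0.093, SE 0.058, limma adjusted p = 0.473), nor HMGA2 (-0.023, SE 0.058, adjusted p = 0.882) passed the test, so every direction below rests on the label S153E-RKIP. Array medians ran from 5.60 to 5.67, and S153E-RKIP replicate 1 lay apart from replicates 2 and 3 on the second principal component, which held 21.6% of the variance. Among all genes, VIM, KRT18, CD44 and KRT8, markers of this mesenchymal-like line, ranked at percentiles 99.9, 99.2, 98.1 and 85.7. None of them was called, but without overlap CD44 was higher (0.13) and VIM (-0.057) and KRT8 (-0.19) were lower on the arrays labelled S153E-RKIP. Of 4 markers listed as low or absent in this line, PGR and CDH1 ranked at 10.5 and 12.9, but ESR1 and EPCAM at 50.1 and 69.2. Of 7 measured markers of blood cells, fibroblasts and endothelium, LUM and PTPRC ranked at percentiles 2.72 and 8.52, and COL1A1 was the highest at 68.4. None of the 7 was called, but 3 were higher without overlap on the arrays labelled S153E-RKIP: CD3E (0.29, adjusted p = 0.139), COL1A1 (0.21, adjusted p = 0.215) and PTPRC (0.10, adjusted p = 0.432). Of all genes, 9.31% were higher and 10.8% lower without overlap. The part of these markers in the results below was not tested.

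HSP70 proteins bind unfolded stretches of other proteins and release them in a cycle driven by ATP. J-domain proteins, the DNAJ genes, bring clients to HSP70 and start ATP hydrolysis, and HSP110 and BAG proteins exchange the nucleotide. HSP90 finishes the folding of kinases and receptors, Raf-1 among its clients, while small heat shock proteins hold unfolded proteins in a soluble state and HSP60 with HSP10 folds proteins inside mitochondria. HSF1 switches on the inducible members under proteotoxic stress. Not every gene of the group sits where its common name places it: 8 of those measured act in or at the endoplasmic reticulum, HSPA13, DNAJB12, DNAJB14, DNAJC1, DNAJC10, DNAJC14, DNAJC16 and DNAJC18.

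On the arrays labelled S153E-RKIP, 1 of the 64 measured chaperone genes fell and none rose (limma, adjusted p under 0.05 over all genes). The fall was that of DNAJC6, which encodes auxilin, the J-domain protein that brings HSP70 to clathrin-coated vesicles to uncoat them. Over all genes, 1.21% were called lower and 0.688% higher, so a count of 1 in 64 is near the background. At an unadjusted p under 0.05, 11 of the 64 were lower and 2 higher, or 17.2% and 3.12%, against 7.92% and 7.75% of all genes. The 11 were DNAJC6, DNAJB6, DNAJB1, DNAJB2, DNAJB5, HSPB1, DNAJC13, DNAJB4, HSPH1, DNAJC17 and DNAJC27, of which 5 are of the DNAJB class, and the 2 were DNAJC5B and DNAJA3. In 14 of the 64 all 3 arrays labelled S153E-RKIP lay below all 3 control arrays, and in 5 they lay above (21.9% and 7.81%, against 10.8% and 9.31% of all genes). The median difference was -0.027 over the 64 genes and 0.010 over all genes. With each array left out in turn, the median over the 64 genes lay between -0.041 (without control replicate 3) and -0.019 (without S153E-RKIP replicate 2). It was -0.040 without S153E-RKIP replicate 1. Other processing moved it both ways, to -0.0075 after quantile normalisation again, -0.011 with probe sets averaged per gene and -0.0465 with equal medians. In RNA from whole cultures, fewer cells with a transcript and less of it per cell cannot be told apart.

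The difference moved with signal level over the whole array, and the members' counts stand beside that. Of the 9887 genes above the median level of all genes, 61.6% had a difference below 0 and 13.3% were lower at an unadjusted p under 0.05. Of the 43 chaperone genes above that level, 32 (74.4%) had a difference below 0 and 9 (20.9%) were lower at that p. Of the 9888 genes at or under it, 31.1% had a difference below 0 and 2.54% were lower at that p. Of the 21 chaperone genes there, 9 (42.9%) had a difference below 0 and 2 (9.52%) were lower at that p, DNAJB2 and DNAJC27. With this trend removed by loess, the members' median difference was -0.019 and 2 genes were called lower, DNAJC6 and DNAJB2.

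**Figure D1:**
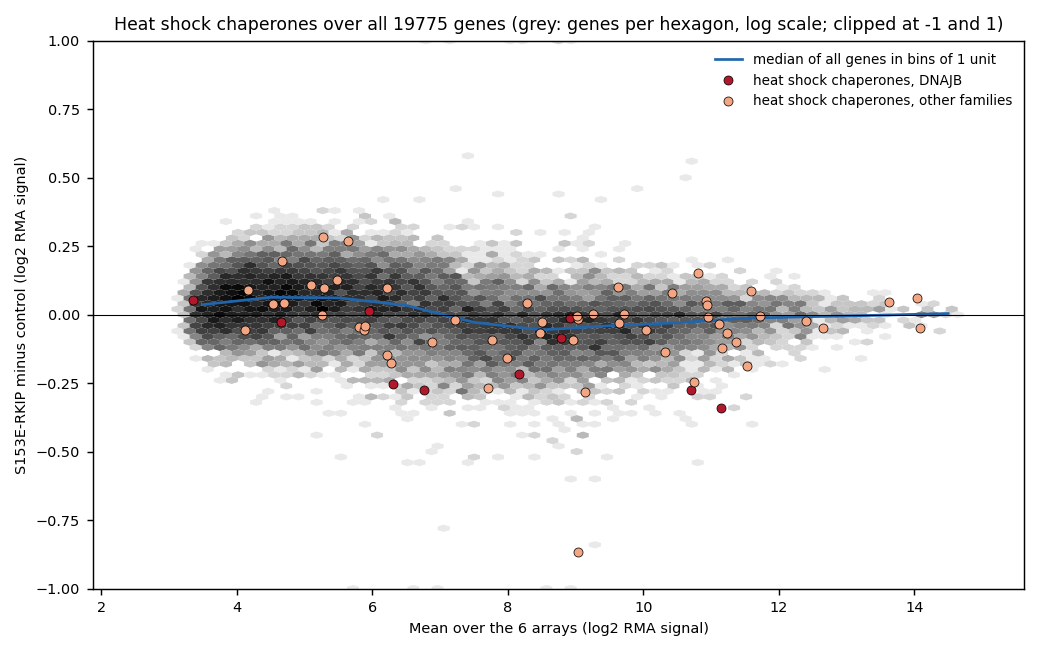
Difference between S153E-RKIP and control (vertical axis, log2 RMA signal) against the mean over the 6 arrays (horizontal axis, log2 RMA signal) for all 19775 genes (grey hexagons) and the 64 chaperone genes (points, dark red for DNAJB). The blue line is the median of all genes in bins of 1 unit: it is 0.061 between 5 and 6 and -0.056 between 8 and 9. DNAJC6 at -0.87 lies at the lower edge of the genes of like level.

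DNAJC6 (chr1:65264749-65415871, GRCh38.p14) had levels of 8.54, 8.48 and 8.79 on S153E-RKIP replicates 1, 2 and 3, against 9.48, 9.52 and 9.42 on control replicates 1, 2 and 3. All 3 arrays labelled S153E-RKIP were low, replicate 3 the least so, and the groups lay well apart. The gene fell by 0.87 on the log2 scale, or 1.82-fold (adjusted p = 0.00202, SE 0.086, 95% confidence interval -1.06 to -0.669), which placed it at rank 58 of all genes by p. The call held whichever array was left out, with a difference of -0.83 without S153E-RKIP replicate 1 (adjusted p = 0.0140) and a highest adjusted p of 0.0278 without control replicate 1. It rests on 1 of the gene's 2 probe sets. The other had levels of 4.18, 3.86 and 3.90 on the arrays labelled S153E-RKIP and 3.95, 3.97 and 4.03 on control arrays, with a difference of -0.0024. With the mean of both probe sets the difference was -0.43 (adjusted p = 0.00978).

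The DNAJB class, shown in dark red in the plot of difference against level, holds J-domain proteins with a glycine- and phenylalanine-rich stretch and no zinc-finger region. Of its 10 measured genes, 8 had a difference below 0, none passed the test, and the 5 at an unadjusted p under 0.05 were all lower with no overlap between the groups, beside 7.92% of all genes lower at that p and 10.8% lower without overlap. The class median was -0.15, the lowest of the 9 families. DNAJB6 (chr7:157337004-157417439), which keeps aggregation-prone proteins from forming fibrils, had 11.10, 10.88 and 10.94 on the arrays labelled S153E-RKIP, against 11.26, 11.34 and 11.33 on control arrays. Its difference was -0.34 (SE 0.070, adjusted p = 0.0542). Of its arrays labelled S153E-RKIP, replicate 1 was the nearest to control, and without it the difference was -0.40 and the gene was called (adjusted p = 0.0276). Over all 6 arrays left out in turn, the difference ran from -0.40 to -0.30 and the adjusted p from 0.0276 to 0.204. On 2 further probe sets annotated to TMEM135 and DNAJB6 together the difference was -0.20 and -0.12.

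DNAJB1 (chr19:14514769-14560391), the heat-inducible J-domain protein also named HSP40, had 10.62, 10.54 and 10.56 on the arrays labelled S153E-RKIP and 10.85, 10.89 and 10.80 on control arrays. The groups were narrow and apart by more than the range within either. The difference was -0.27 (SE 0.056, adjusted p = 0.0551), and its other probe set gave -0.29 with no overlap. DNAJB2, which has ubiquitin-interacting motifs and hands clients to the proteasome, had 6.17, 6.23 and 6.12 on the arrays labelled S153E-RKIP, against 6.44, 6.42 and 6.42 on control arrays (-0.25, SE 0.056, adjusted p = 0.0710). DNAJB5 had 6.67, 6.52 and 6.67 on the arrays labelled S153E-RKIP, against 6.88, 6.93 and 6.90 on control arrays (-0.28, SE 0.062, adjusted p = 0.0773). Its dimmer probe set, at 5.34, 5.08 and 5.10 on the arrays labelled S153E-RKIP and 4.88, 5.25 and 5.32 on control arrays, showed no such gap. DNAJB4 had 8.10, 7.95 and 8.13 on the arrays labelled S153E-RKIP and 8.28 on each control array to 2 decimals (-0.22, SE 0.063, adjusted p = 0.161), and its second probe set gave -0.11, again with no overlap.

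The other 5 DNAJB genes had differences between -0.087 and 0.055, and their groups overlapped. DNAJB12 and DNAJB14, which sit in the membrane of the endoplasmic reticulum, had -0.014 and -0.087. DNAJB7 and DNAJB8, known from testis, and DNAJB13, a part of the axoneme of cilia and flagella, had levels below the median of all genes and differences of 0.055, -0.026 and 0.012.

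**Figure D2:**
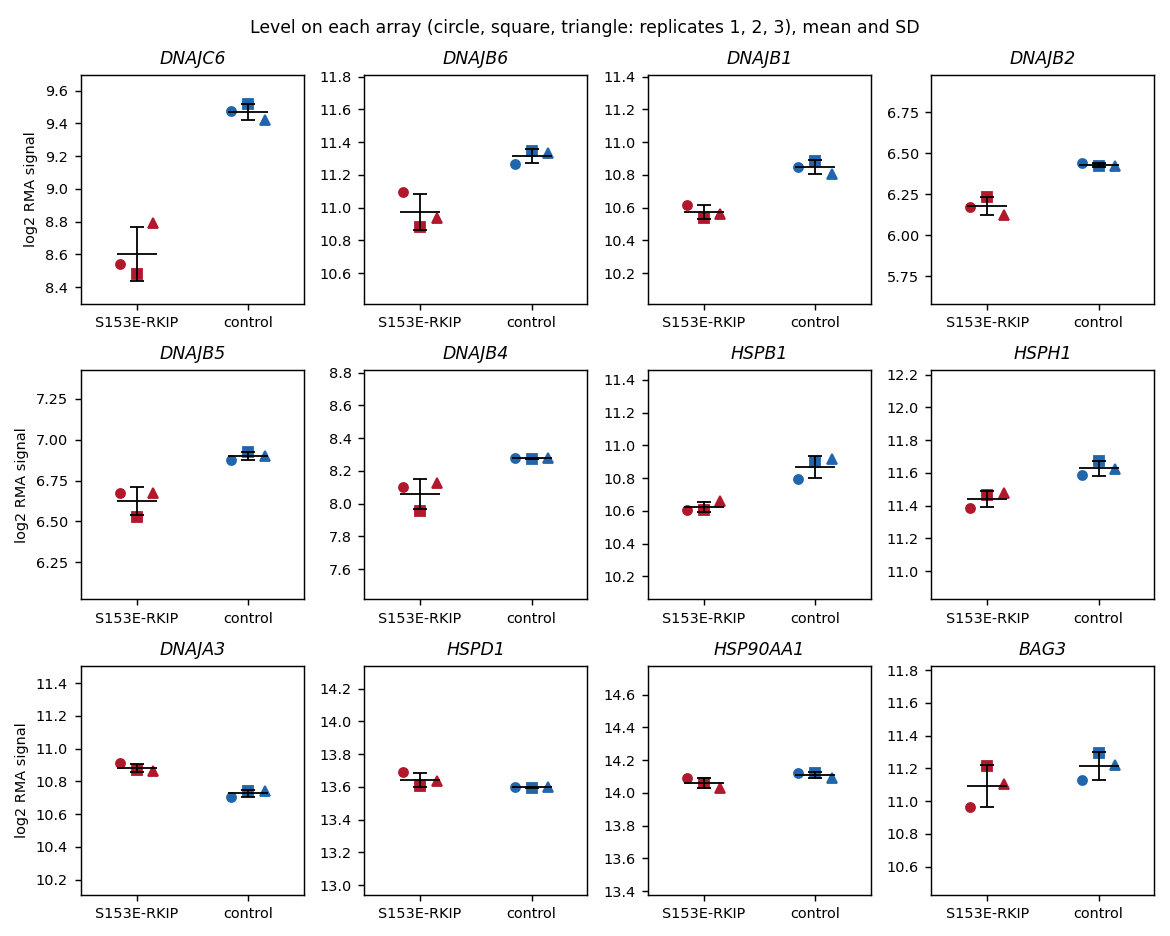
Level on each array (log2 RMA signal, vertical axes all spanning the same number of units) for 12 chaperone genes, S153E-RKIP in red at left and control in blue at right, with the mean and SD of 3 arrays. DNAJC6 shows the widest gap, the 5 DNAJB genes, HSPB1 and HSPH1 a narrower gap with no overlap, and BAG3 overlapping groups.

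Among the HSP70 genes, the closely related heat-inducible genes HSPA1A and HSPA1B were read only jointly, by probe sets tested in a fit over all 54613 probe sets, of which 1.05% were called. The brightest probe set annotated to both had 10.86, 10.89 and 10.84 on the arrays labelled S153E-RKIP and 11.14, 11.24 and 11.19 on control arrays. The groups did not overlap, and the difference was -0.32 (SE 0.060, adjusted p = 0.0503). The second had 10.40, 10.38 and 10.12 on the arrays labelled S153E-RKIP, against 10.41, 10.47 and 10.48 on control arrays (-0.16, adjusted p = 0.463). The probe set annotated to HSPA1L as well gave -0.21 (SE 0.059, adjusted p = 0.178). All 3 were thus lower with no overlap and none was called, and which of the genes they read cannot be told apart. HSPA1L, on the 2 probe sets that are its alone, had differences of 0.097 and -0.0094.

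HSPA8, the constitutive HSP70 of the cytosol, was read by 4 probe sets that the annotation shares with the small nucleolar RNAs SNORD14C and SNORD14D in its introns. The brightest had 14.24, 14.21 and 14.21 on the arrays labelled S153E-RKIP, against 14.22, 14.23 and 14.23 on control arrays. The groups overlapped on all 4, and the differences lay between -0.018 and 0.010. HSPA9, the HSP70 of mitochondria, had 12.43, 12.33 and 12.41 on the arrays labelled S153E-RKIP and 12.46, 12.38 and 12.41 on control arrays (-0.023, 95% confidence interval -0.154 to 0.108, adjusted p = 0.879). HSPA6, an HSP70 gene known to be nearly silent without stress, had 5.74, 5.65 and 5.92 on the arrays labelled S153E-RKIP and 5.68, 5.60 and 5.23 on control arrays, below the median of all genes. Its difference of 0.27 (SE 0.12, adjusted p = 0.337) came with the widest confidence interval of the HSP70 genes, and its second probe set gave 0.031. Without control replicate 3, its lowest array, the difference was 0.13. The 8 HSP70 genes counted among the 64 had differences between -0.056 and 0.27 with a median of -0.0062, and all 8 had overlapping groups.

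The HSP110 genes encode large relatives of HSP70 that act as its exchange factors. All 3 had a difference below 0 on their brightest probe set, as did 61.6% of all genes above the median level. HSPH1 (chr13:31134973-31162388), which is heat-inducible, had 11.38, 11.47 and 11.47 on the arrays labelled S153E-RKIP, against 11.59, 11.67 and 11.62 on control arrays. The difference was -0.19 (SE 0.058, adjusted p = 0.181), and the groups did not overlap on any of its 3 probe sets, whose differences were -0.19, -0.29 and -0.24. HSPA4 had 11.31, 11.10 and 11.20 on the arrays labelled S153E-RKIP and 11.30, 11.23 and 11.28 on control arrays, with overlapping groups and a difference of -0.067. The other probe sets of HSPA4 gave -0.0071, 0.0775 and -0.1075. HSPA4L had a difference of -0.030, and its second probe set gave 0.128.

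HSPB1 (chr7:76302673-76304292), the small heat shock protein HSP27, had 10.61, 10.60 and 10.66 on the arrays labelled S153E-RKIP, against 10.79, 10.90 and 10.92 on control arrays. It was lower on all 3 arrays without overlap, with a difference of -0.25 (SE 0.059, adjusted p = 0.0941), and has 1 probe set. It was the only small heat shock protein gene with a level above the median of all genes. The other 6, HSPB2, HSPB3, HSPB6, HSPB7, HSPB8 and HSPB9, lay below it and had differences between 0.040 and 0.20. HSPB3 was the highest of them, with 4.89, 4.65 and 4.75 on the arrays labelled S153E-RKIP and 4.41, 4.60 and 4.68 on control arrays (adjusted p = 0.334). HSPB8, the partner of BAG3, had 5.45, 5.68 and 5.48 on the arrays labelled S153E-RKIP and 5.39, 5.38 and 5.45 on control arrays, with groups that met at their nearest values (0.13, adjusted p = 0.442).

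The 60 bases around 1 match to a heat shock element are shown for each of 6 genes, of which none was called. Chosen were those with a triple, and the pair HSPA1A and HSPA1B for their likeness. HSPB1 was chosen for its match among the genes at an unadjusted p under 0.05. A second triple of HSPA8 and a further pair of HSPA6 are not shown. A heat shock element, the sequence HSF1 binds, is built from inverted repeats of GAA. Promoter windows from RefSeq (GRCh38.p14, 1 per gene) were searched in the 250 bases before the start, on both strands, for a pair of units (GAANNTTC or TTCNNGAA) and for a triple (GAANNTTCNNGAA or TTCNNGAANNTTC), where each triple also contains pairs. The windows are DNAJB6 at chr7:157336849-157336908 on the plus strand, HSPB1 at chr7:76302465-76302524 on the plus strand, HSPA1A at chr6:31815411-31815470 and HSPA1B at chr6:31827607-31827666, both on the plus strand, HSPA8 at chr11:123062156-123062215 on the minus strand, and HSPA6 at chr1:161524442-161524501 on the plus strand. Capitals mark the match, a triple in DNAJB6, HSPA8 and HSPA6 and a pair in the others.
DNAJB6: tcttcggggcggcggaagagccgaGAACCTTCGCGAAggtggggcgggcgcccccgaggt
HSPB1: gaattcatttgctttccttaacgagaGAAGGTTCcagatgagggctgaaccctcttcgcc
HSPA1A: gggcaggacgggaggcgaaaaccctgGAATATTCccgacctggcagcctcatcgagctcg
HSPA1B: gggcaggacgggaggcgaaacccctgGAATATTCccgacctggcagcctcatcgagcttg
HSPA8: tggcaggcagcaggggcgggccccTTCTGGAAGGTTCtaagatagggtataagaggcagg
HSPA6: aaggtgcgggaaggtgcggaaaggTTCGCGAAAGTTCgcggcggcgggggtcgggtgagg

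A triple was found in 3 of the 60 chaperone genes with a window, DNAJB6, HSPA6 and HSPA8, or 5.0%, and in 120 of 27305 promoters (0.439%). A pair was found in 13 of the 60 (21.7%) and in 11.7% of all promoters. The match of DNAJB6 lies 131 to 119 bases before the start and the 1 shown for HSPA8 lies 55 to 43 bases before it. The windows of HSPA1A and HSPA1B differ at 2 of the 60 bases, and the window found for HSPA1L is the same stretch as that of HSPA1A read on the other strand, since HSPA1A and HSPA1L start next to each other on opposite strands. Of the 11 genes lower at an unadjusted p under 0.05, all with a window, 2 held a pair, DNAJB6 and HSPB1. Of the other measured members 8 of 45 held one. The letters are not a measurement of HSF1 binding.

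HSF1 itself had 8.52, 8.34 and 8.47 on the arrays labelled S153E-RKIP and 8.59, 8.41 and 8.53 on control arrays, with overlapping groups. Its difference was -0.068 (adjusted p = 0.681, 95% confidence interval -0.232 to 0.0972), and its dimmer probe set gave 0.11. BAG3, an HSF1 target that links HSP70 and HSPB8 to autophagy, had 10.96, 11.21 and 11.11 on the arrays labelled S153E-RKIP and 11.13, 11.29 and 11.22 on control arrays. Its groups also overlapped (-0.12, SE 0.080, adjusted p = 0.494), and the difference was -0.054 without S153E-RKIP replicate 1 and -0.181 without S153E-RKIP replicate 2.

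The HSP90 genes of the cytosol had small differences of opposite sign. HSP90AA1, the inducible form, had 14.09, 14.06 and 14.03 on the arrays labelled S153E-RKIP and 14.12, 14.12 and 14.09 on control arrays (-0.051, 95% confidence interval -0.171 to 0.0705, adjusted p = 0.674). HSP90AB1, the constitutive form, had 14.07, 14.07 and 14.06 on the arrays labelled S153E-RKIP and 13.95, 14.03 and 14.03 on control arrays (0.060, 95% confidence interval -0.0648 to 0.184, adjusted p = 0.623). The groups did not overlap in either gene on these probe sets, by a small margin and in opposite directions, and both intervals leave out a change as large as that of DNAJC6. The other 2 probe sets of HSP90AB1 gave 0.0044 and 0.0017, with overlap. Those of HSP90AA1 gave -0.0138 with overlap, and -0.065 and -0.049 without it.

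In mitochondria HSPD1 and HSPE1, which encode HSP60 and HSP10 and start from opposite strands of 1 shared promoter region (their RefSeq windows overlap by 204 bases), both had differences above 0. HSPD1 had 13.69, 13.60 and 13.64 on the arrays labelled S153E-RKIP, against 13.60, 13.59 and 13.60 on control arrays (0.046, SE 0.054, adjusted p = 0.710). HSPE1 had 11.74, 11.59 and 11.55 on the arrays labelled S153E-RKIP, against 11.55, 11.51 and 11.56 on control arrays (0.085, SE 0.065, adjusted p = 0.556). S153E-RKIP replicate 1 was the highest array for both genes, and without it the difference was 0.024 for HSPD1 and 0.029 for HSPE1. DNAJA3, the mitochondrial J-domain protein also named Tid1, had 10.91, 10.87 and 10.87 on the arrays labelled S153E-RKIP and 10.70, 10.74 and 10.74 on control arrays. It was higher with no overlap on both of its probe sets (0.15 and 0.12) and was not called (adjusted p = 0.222). The other J-domain members in mitochondria, DNAJC15 and DNAJC19 of the inner membrane import motor, DNAJC11 and DNAJC30, had differences between -0.16 and 0.10. Over the 8 mitochondrial members the median was 0.025, with 1 higher and none lower at an unadjusted p under 0.05, where 7.75% of all genes were higher and 7.92% lower. Over the 33 members that work mainly in the cytosol it was -0.026, with 8 lower and none higher, a contrast that was not tested.

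**Figure D3:**
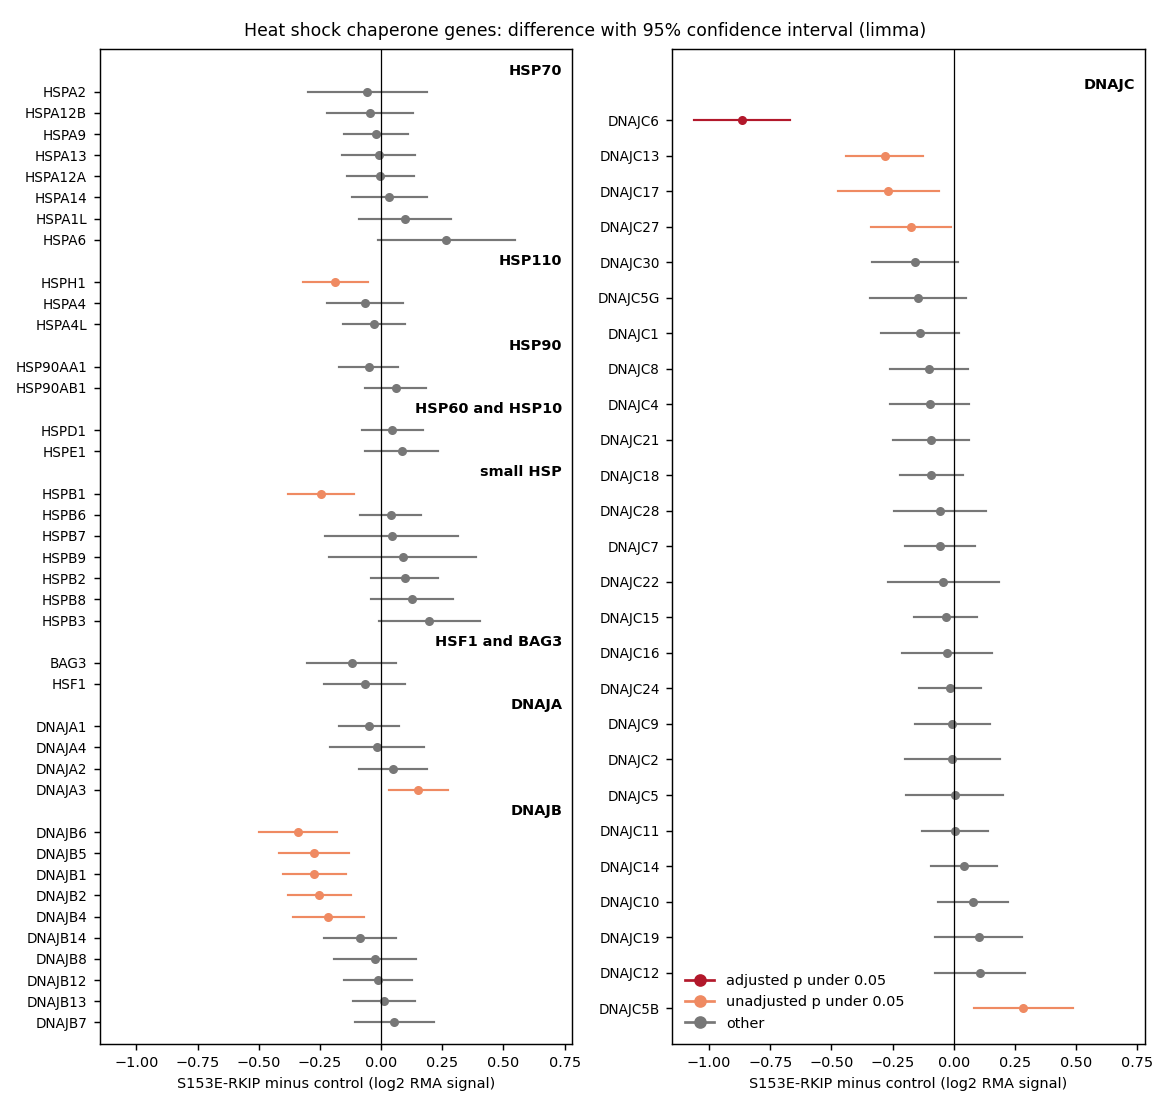
Difference between S153E-RKIP and control (horizontal axis, log2 RMA signal) with its 95% confidence interval for each of the 64 chaperone genes, by family. DNAJC6 is the 1 gene called, and the 5 DNAJB genes in orange lie between -0.34 and -0.22.

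The DNAJA genes encode J-domain proteins with a zinc-finger region. Apart from DNAJA3 they had differences between -0.049 and 0.048 with overlapping groups. DNAJA1, a partner of HSPA8 in the cytosol, had 12.66, 12.60 and 12.61 on the arrays labelled S153E-RKIP and 12.67, 12.64 and 12.70 on control arrays (adjusted p = 0.692).

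The DNAJC genes share only the J domain and serve many processes, and of 26 measured 19 had a difference below 0, with a family median of -0.049. Beside DNAJC6, DNAJC13 (RME-8), which works with HSP70 on endosomes, had 8.91, 9.02 and 9.08 on the arrays labelled S153E-RKIP and 9.33, 9.33 and 9.20 on control arrays. The groups did not overlap (-0.28, SE 0.069, adjusted p = 0.0990), and its 2 dimmer probe sets gave -0.18 and -0.11 with overlap. DNAJC17, a splicing factor, had 7.74, 7.38 and 7.61 on the arrays labelled S153E-RKIP and 7.86, 7.81 and 7.86 on control arrays. It varied more among the arrays labelled S153E-RKIP than among control arrays, with a difference of -0.27 (SE 0.091, adjusted p = 0.216) that was -0.17 without replicate 2.

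DNAJC27, a small GTPase with a J domain, had 6.28, 6.10 and 6.20 on the arrays labelled S153E-RKIP and 6.40, 6.44 and 6.27 on control arrays, with overlapping groups (-0.18, adjusted p = 0.288). In the other direction DNAJC5B, a relative of the cysteine string protein of vesicles, had 5.36, 5.42 and 5.48 on the arrays labelled S153E-RKIP and 4.95, 5.29 and 5.17 on control arrays, below the median of all genes (0.28, SE 0.089, adjusted p = 0.186). Its close relative DNAJC5 had a difference of 0.0035. DNAJC2, DNAJC21, DNAJC9 and DNAJC8, which work with ribosomes, histones or the spliceosome, had differences between -0.10 and -0.0053. The splicing factor DNAJC17 lay outside that range, at -0.27.

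Most members were read by several probe sets, and 50 of the 64 had more than 1. Of the 156 probe sets that belong to 1 measured member, 1 was called, the brighter of DNAJC6. Probe sets of DNAJB1, DNAJB4 and HSPH1 were lower without overlap each time, and those of DNAJA3 were higher without overlap each time. Probe sets in both directions were common among the members with more than 1. They included those of DNAJB5, DNAJB12, DNAJC21, DNAJC27, HSF1, HSPA4, HSPA4L, HSPA9, HSPA14 and HSPD1. For HSPD1 the 2 brightest gave 0.046 and 0.057, and the dimmer 3 ran from -0.15 to 0.22.

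**Figure D4:**
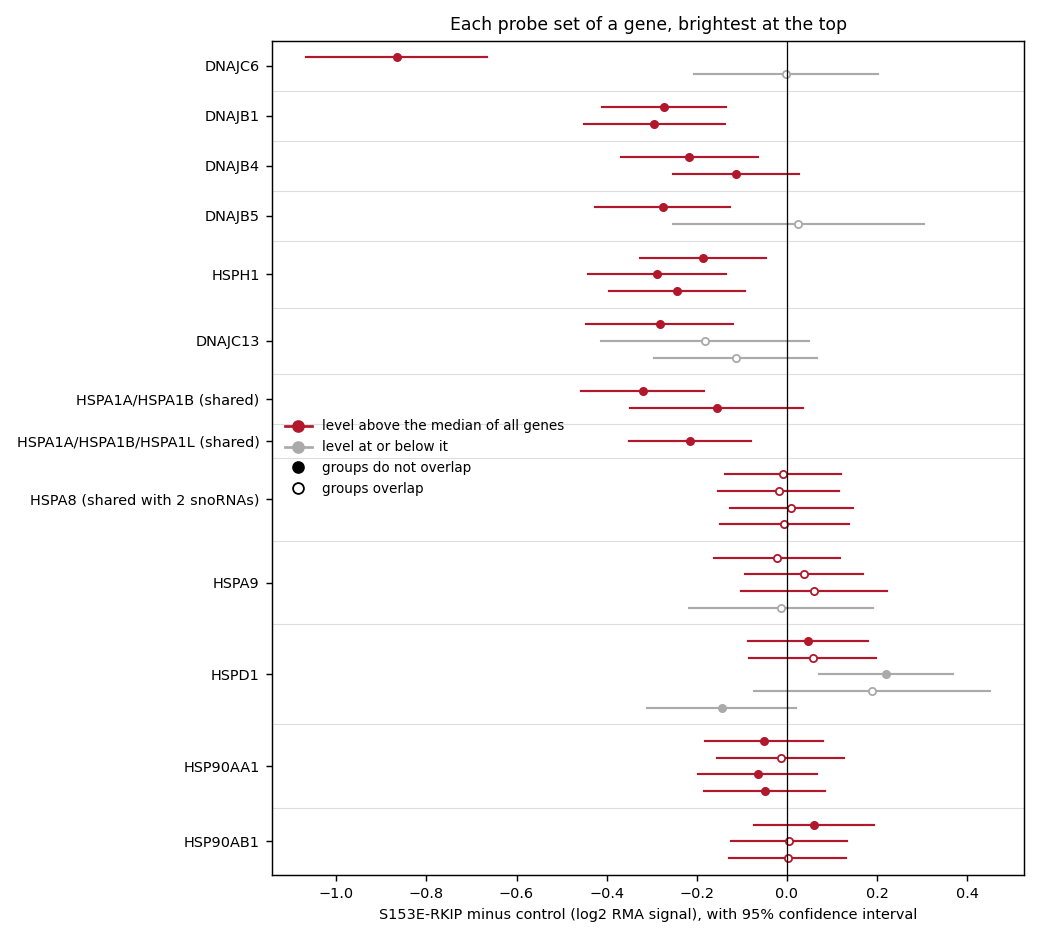
Difference between S153E-RKIP and control (horizontal axis, log2 RMA signal) with its 95% confidence interval for every probe set of 10 genes and for the shared probe sets of HSPA1A, HSPA1B, HSPA1L and HSPA8, the brightest at the top of each gene. Filled points mark groups that do not overlap: all 3 probe sets of HSPH1 and all 3 of HSPA1A and HSPA1B are filled and below 0, and those of HSPA8 straddle 0.

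By array, the members of a family were compared after subtracting each gene's own mean over the 6 arrays. The median over the 10 DNAJB genes was -0.078, -0.076 and -0.062 on S153E-RKIP replicates 1, 2 and 3, against 0.088, 0.087 and 0.074 on control replicates 1, 2 and 3. The same median over all genes lay between -0.0061 and 0.016 on the 6 arrays. For the 8 HSP70 genes, which leave out HSPA1A, HSPA1B and HSPA8, it was 0.063, 0.014 and -0.042 on S153E-RKIP replicates 1, 2 and 3 and 0.039, -0.014 and -0.012 on control replicates 1, 2 and 3, so the groups overlapped. For the 26 DNAJC genes it was 0.0023, -0.053 and -0.010 against 0.046, 0.033 and 0.029, in the same order. Medians of all 64 members, of HSP110 and of HSF1 with BAG3 were likewise lower without overlap. That of HSPD1 with HSPE1 was higher without overlap. HSP90, small heat shock protein and DNAJA medians overlapped. S153E-RKIP replicate 1 was the highest array of its group for 32 of the 64 members, against 15 for replicate 2 and 17 for replicate 3. It was also the highest of its group in the median over all genes (0.016), and the count was not made over all genes.

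Genes around the chaperones were read from 8 lists of related factors, in which 60 of 66 genes were measured. None was called by limma, and the median was 0.012. At an unadjusted p under 0.05, 5 of the 60 were lower and 1 was higher, beside 7.92% and 7.75% of all genes, so the count lower is near the background. The 8 measured subunits of the cytosolic chaperonin, which folds actin and tubulin, had differences between -0.028 and 0.060, with CCT7 at 0.055 and CCT3 at 0.060, and all overlapped. The 5 prefoldin subunits, which pass clients to it, lay between -7e-04 and 0.075, with PFDN4 at 0.075 and PFDN2 at 0.054. Of 12 co-chaperones of HSP90, none was past an unadjusted p of 0.05, with FKBP4 at 0.14 and CDC37L1 at 0.15.

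Of 11 exchange factors and helpers of HSP70, BAG5 had -0.16 (adjusted p = 0.303) and BAG2 had 0.14 (adjusted p = 0.331). Without overlap, 4 of the 11 were lower and 1 higher, beside 10.8% and 9.31% of all genes, and the list median was -0.061. Over all 60 related genes, 9 were lower and 4 higher without overlap. Of 5 heat shock factors and regulators, HSF2BP had -0.26 (adjusted p = 0.187) and UBB -0.059. The 11 mitochondrial chaperones and proteases lay between -0.063 and 0.13, with TRAP1, the HSP90 of mitochondria, at 0.13 and CLPB at 0.071. CLU, the secreted chaperone clusterin, had 6.85, 6.76 and 7.00 on the arrays labelled S153E-RKIP and 7.14, 7.26 and 7.14 on control arrays (-0.31, SE 0.076, adjusted p = 0.0990). CRYAB, the small heat shock protein alpha B-crystallin, had 4.98, 5.15 and 4.87 on the arrays labelled S153E-RKIP and 4.68, 4.69 and 4.81 on control arrays, below the median of all genes (0.27, adjusted p = 0.161).

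Of the chaperones of the endoplasmic reticulum that the selection left out, DNAJB9 had -0.27 (SE 0.10, adjusted p = 0.261) and HSPA5, which encodes BiP, had -0.21 (SE 0.084, adjusted p = 0.281), both without overlap and not called. The other 3 overlapped, with DNAJC3 at -0.081, HSP90B1 at 0.027 and DNAJB11 at 0.049. HSPA5 had 12.27, 12.43 and 12.45 on the arrays labelled S153E-RKIP, against 12.54, 12.75 and 12.50 on control arrays. The 8 measured members placed at the endoplasmic reticulum had a median of -0.021 and none at an unadjusted p under 0.05. Whether they differ from DNAJB9 and HSPA5 was not tested.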

How the data were processed

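The authors deposited a table of log2 signals, with a column for each of the 6 arrays. According to the submitters' processing notes the tool was RMA, which removes background, sets all arrays to shared quantiles and sums up the probes of a set; its version is absent from the sources read. The deposited values were not normalised further. Of 54675 probe sets, 62 controls were left out. A gene was read by its brightest probe set over the 6 arrays among those the platform annotation gives 1 symbol, and no dim gene was removed.

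The 3 S153E-RKIP arrays were compared with the 3 control arrays with limma 3.58.1 in R 4.3.3 (lmFit, eBayes, two-sided), with Benjamini-Hochberg adjustment over 19775 genes and calls at an adjusted p under 0.05. The fit was checked on simulated data, and 18 alternatives (probe set choice, level filters, normalisation, variance model, replicate block and each array left out) were run. The number of arrays limits precision, and the median standard error over all genes was 0.072. Values with the text "adjusted p" come from this fit unless a fit over probe sets is named, and the differences of second probe sets come from that fit.

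The members, the related lists and the genes named were chosen with earlier results of these data known. Named with values were 15 core members, those at an unadjusted p under 0.05, the 5 largest differences each way, and the members of each related list that were called or, failing that, up to 2 with the smallest p. Levels and differences of further members were added where a family was described. Promoter windows are RefSeq's, held for 60 of the 68 genes. Figures were drawn with matplotlib 3.10.9.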

Additional observations from a re-analysis of the deposited data

How the results depend on the processing

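Of 440 values of 25 named members under 18 alternatives, 414 kept their direction and their side of the threshold, none was lost, 23 were newly called, all lower, and 3 changed sign while uncalled: HSF1 (0.023) and HSPA9 (0.015) with probe sets averaged per gene, and HSPA9 (0.0063) without S153E-RKIP replicate 2. Some alternatives leave every difference as it was, so no direction could change there. They are the level filters, each probe set by itself, eBayes trend and robust estimation, the replicate block and an adjusted p under 0.01. DNAJC6, the only member called in the main fit and so the only call that could be lost, was called under all 18. No member was called higher under any. The number called lower was 4 with the mean of probe sets (402 of all genes called), 6 with only genes above the median level (523 of 9887), 6 with only genes above 6 on at least 3 arrays (513 of 11672), 3 with equal medians (428), 2 after loess (317), 6 with eBayes trend and robust estimation (600) and 2 with array weights (373). Fewer genes were tested under both level filters. For the other settings the cause was not tested. The number called lower ran from 1 to 2 with each array left out (2 without S153E-RKIP replicate 1). The members' median difference was -0.011 with the mean of probe sets, -0.0075 after quantile normalisation again and -0.047 with equal medians. With each array left out, it ran from -0.041 without control replicate 3 to -0.019 without S153E-RKIP replicate 2. The 2 level filters gave -0.049 and -0.051, but over the 43 and 47 members they keep, whose differences are as in the main fit. Over all genes, 376 were called, and 147 at an adjusted p under 0.01, 124 without control replicate 1, 152 without control replicate 2, 130 without control replicate 3, 171 and 216 without S153E-RKIP replicates 2 and 3, and 303 without S153E-RKIP replicate 1. Same-numbered samples deviated together in replicates 1 and 2 (correlations of 0.134 and 0.259) but not 3 (-0.044), so the numbers were not taken as pairs. With a replicate block 332 genes and 1 member were called. Signal over background was not measured, which limits the 21 members at or below the median level.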
